A study of Mus musculus with 4 samples.

Results

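Solute carriers are the membrane proteins that move amino acids, sugars, vitamins, metals and ions across the cell surface and the membranes of organelles, and the genes examined here are those of this superfamily with transcripts in mouse liver double negative T cells. A gene was included if its symbol begins with Slc and a digit, its row carries no suffix for a repeated locus, and its value reaches 1 in at least 2 of the 4 libraries, so members were chosen by their measured level. This rule kept 173 of the 329 solute carrier rows in a table of 17454 genes. Their presence is therefore a description and not a finding.

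The cells were sorted from the liver of adult C57BL/6 mice as live (7-AAD negative) CD45+ CD3+ cells lacking NK1.1, CD4 and CD8, and their RNA was sequenced. Of the 4 libraries, 2 were normal-fed (normal diet) and 2 deficient-fed (methionine-choline deficient diet, which produces fatty liver inflammation in mice). The labels name no allele or further agent. They leave unstated whether a group's libraries are separate animals or pools, and the p-values therefore reflect spread among libraries only. Values are taken as FPKM, which scales fragments by transcript length and library size and so allows levels of different genes to be compared. The table keeps no read counts, and read depth is unknown.

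T cells take up nutrients mainly through a limited set of these carriers. After activation they rely on GLUT1 for glucose, on ASCT2 and SNAT1 for glutamine and on LAT1, a dimer of Slc7a5 with the CD98 heavy chain Slc3a2, for large neutral amino acids such as methionine. Methionine feeds S-adenosylmethionine, the methyl donor, and choline feeds phosphatidylcholine and, through betaine, the remethylation of homocysteine, for which folate is the alternative source of methyl groups.

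The sorted identity was checked first. All 10 T cell markers in the table reached 1 FPKM in every library, and Cd3e stood at 460.0 and 348 FPKM in normal-fed and 496 and 700.3 FPKM in deficient-fed libraries. Of these 10, 3 (Cd3e among them) were higher and 7 lower in both deficient-fed libraries, beside 30.7% and 25.5% of all genes tested. Their median log2 change was -0.31, and none was called in limma. Ptprc, which encodes CD45, stood at 424 and 309 FPKM in normal-fed and 209 and 220 FPKM in deficient-fed libraries. Of the genes used for negative sorting, Cd4 stood at 3.86 and 4.11 against 0.618 and 2.44 FPKM (normal-fed first, as in all such pairs below). Cd8a stood at 22.4 and 8.26 against 0.836 and 1.42 FPKM. Klrb1c, which encodes NK1.1, stood at 18.3 and 13.8 against 5.34 and 2.96 FPKM. Transcripts of cells outside the gate were present. The 14 macrophage and Kupffer cell markers summed to 152 and 2144 FPKM in normal-fed and 1378 and 736 FPKM in deficient-fed libraries, with the Kupffer cell marker Clec4f listed at 0 in normal diet replicate 1, and 5 reached 1 FPKM in every library. The 13 pancreatic acinar markers summed to 11571 and 3303 FPKM in normal-fed and 1072 and 402 FPKM in deficient-fed libraries. Of them 11 were lower in both deficient-fed libraries and 0 higher, beside 25.5% and 30.7% of all genes tested, with a median log2 change of -2.93. In limma 1 of them, Cela2a, was called lower, beside 1.53% of all genes tested. Summed markers of other cells lay between 18.4 and 179 FPKM for hepatocytes, 74.5 and 821 for sinusoidal endothelium, 68.7 and 769 for neutrophils, 55.7 and 191 for B cells, 548 and 3614 for dendritic cells, and 45.5 and 243 for red cells.

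Of the 173 members, 143 reached 1 FPKM in all 4 libraries, 14 in 3 and 16 in 2. Of those 16, 6 passed through the normal diet libraries alone, 2 through the deficient diet libraries alone and 8 through 1 library of each diet. The members that passed through 1 diet alone were Slc30a1, Slc35e3, Slc36a1, Slc35b3, Slc38a9 and Slc29a4 on the normal diet and Slc9a2 and Slc22a17 on the deficient diet, and their diets had to differ. Just inside the threshold lay Slc38a9, with a second highest value of 1.01 FPKM, Slc22a17 with 1.02 and Slc38a6 with 1.04, and just outside it Slc4a8 with 0.995, Slc43a1 with 0.944 and Slc30a4 with 0.891. Of the 156 rows outside, 40 were listed at 0 in all libraries and 9 reached 1 FPKM in 1 library.

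The members together took up between 0.7% and 0.796% of the summed FPKM of a library. Mean levels over the 4 libraries ran from 0.779 FPKM for Slc29a2 to 279 FPKM for Slc9a3r1, with a median of 6.08 FPKM and 63 members at a mean of 10 FPKM or more. The gene at the top is no transporter: Slc9a3r1 encodes NHERF1, a scaffold that tethers membrane proteins to the cytoskeleton. The transporters with the highest means were the nucleoside carrier Slc29a1 (161 FPKM), the heavy chain Slc3a2 (129), the glutamine exchanger Slc1a5 (107), the mitochondrial oxoglutarate carrier Slc25a11 (86.4), the endoplasmic reticulum zinc channel Slc39a7 (85.8), the ADP/ATP carrier Slc25a4 (83.6), the glucose carrier Slc2a1 (75.5), the nucleotide sugar transporter relative Slc35c2 (73.3) and the mitochondrial phosphate carrier Slc25a3 (70.05).

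**Figure D1:**
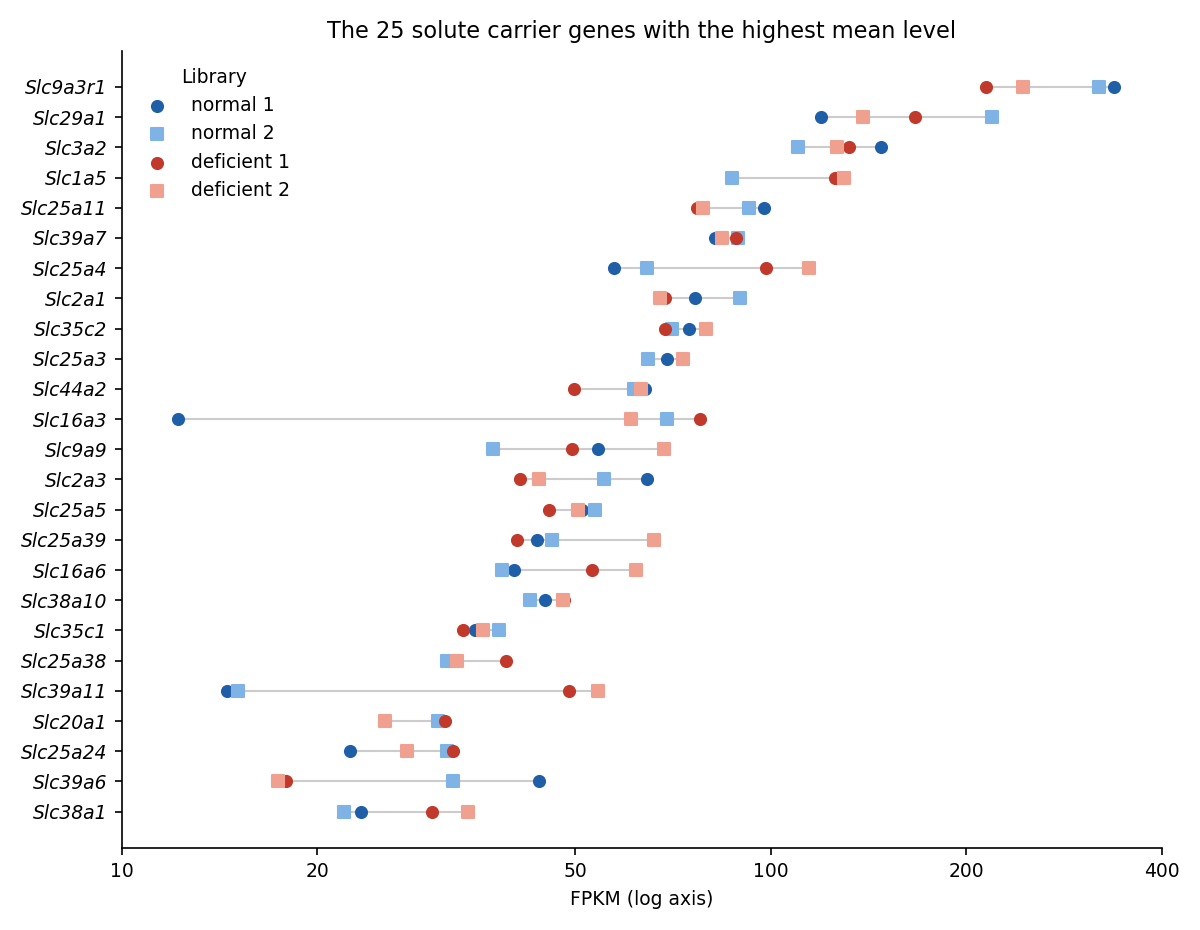
FPKM on a log axis in each of the 4 libraries for the 25 members with the highest mean, blue for the normal diet and red for the deficient diet, circles for replicate 1 and squares for replicate 2. Slc39a11 has both deficient diet libraries far above the normal diet libraries and Slc16a3 has normal diet replicate 1 at 12.2 FPKM against 60.9 to 77.8 FPKM in the others.

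Classes differed in the share of their rows that reached 1 FPKM in at least 2 libraries, a description since members were chosen by level. Metal carriers (28 of 32 rows), mitochondrial carriers (33 of 40) and nucleoside and nucleotide sugar carriers (29 of 36) were mostly members. Amino acid (18 of 54), choline (2 of 6), monocarboxylate (5 of 16) and organic ion carriers (6 of 31) were mostly below the threshold. Mitochondrial carriers held the largest share of the summed level of the members, between 20.6% and 24.2% in a library.

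**Figure D2:**
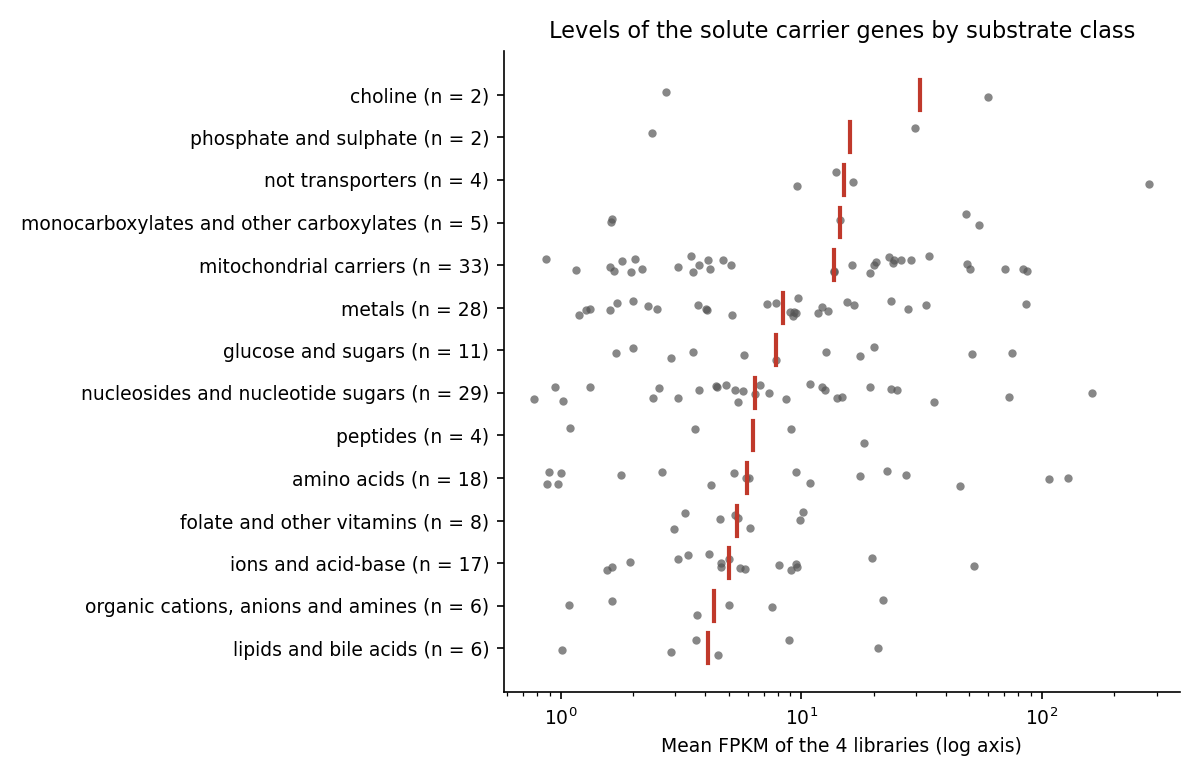
Mean FPKM of the 4 libraries on a log axis for each of the 173 members (grey points, spread vertically at random within a class), with the class median as a red bar. The median lies at 13.6 FPKM for mitochondrial carriers and 5.97 FPKM for amino acid carriers, and classes of 2 members have no meaningful centre.

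Between the diets, 2 members passed limma's test at a Benjamini-Hochberg adjusted p of 0.05 over the 10423 genes tested: the zinc carrier Slc39a11 and the fatty acid carrier Slc27a6, both higher on the deficient diet. Among all genes tested 1.22% were called higher, 1.53% lower and 2.74% in either direction, beside 1.16% of members called higher (2 of 173) and none called lower in limma. The share called higher is near its background, and the share called in either direction lies below its own. At an unadjusted p of 0.05, 27 members were higher and 12 lower, or 15.6% and 6.94%, beside 11.9% and 10.9% of all genes tested. The libraries of the diets did not overlap in 98 members (56.6%), 66 higher and 32 lower, beside 56.2% of all genes tested (30.7% higher and 25.5% lower). For 2 of the 66 and 6 of the 32 the filter alone set this separation, and genes of that kind are also among all genes tested. The median log2 change was 0.22 over the members and 0.040 over all genes tested, where changes are on the log2(FPKM + 1) scale, which understates changes of low genes.

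The calls depended on which libraries were in the fit. Without normal diet replicate 1, deficient diet replicate 1 or deficient diet replicate 2, no member passed in limma (30, 30 and 23 at an unadjusted p of 0.05), and without normal diet replicate 2, Slc39a11, Slc16a3, Slc15a3 and Slc24a5 were called higher and Slc28a2 lower. Leaving 1 library out means that only the intact group contributes to the estimated spread. With a replicate block no member was called (29 at an unadjusted p of 0.05). In bulk RNA, fewer cells of a type and less RNA per cell cannot be told apart.

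**Figure D3:**
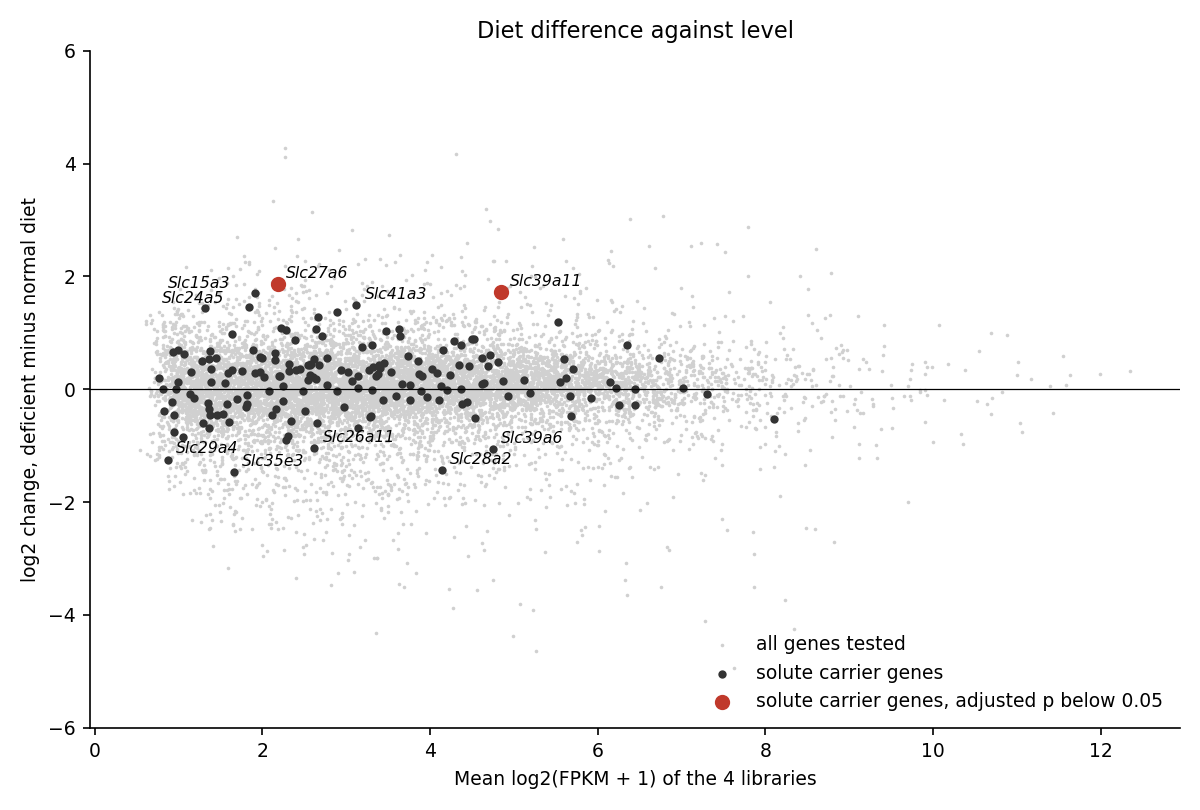
log2 change between the diets (deficient minus normal, vertical) against mean log2(FPKM + 1) (horizontal) for all 10423 genes tested in light grey and the 173 members in black, with the 2 called members in red. Slc39a11 and Slc27a6 lie at 1.73 and 1.86, and the members span -1.47 to 1.86, well inside the range of all genes.

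Among amino acid carriers, the glutamine exchanger Slc1a5 (ASCT2) stood at 86.8 and 87.2 FPKM in normal-fed and 125 and 129.8 FPKM in deficient-fed libraries, and its log2 change, 0.55 ± 0.13 (SE), missed the threshold in limma (adjusted p = 0.0991). Its replicates were close together and the diets did not overlap. Slc38a1 (SNAT1), another glutamine carrier, had 23.4 and 22.01 against 30.01 and 34.2 FPKM (adjusted p = 0.174). Slc38a2 (SNAT2), whose messenger is known to respond to amino acid starvation, went the other way with 27.4 and 26.3 against 19.9 and 17.1 FPKM (adjusted p = 0.165). The level of Slc38a1 over that of Slc38a2 was therefore 0.852 and 0.838 in normal-fed and 1.51 and 1.998 in deficient-fed libraries, a description since both were in the same fit and neither passed.

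Methionine, which the diet lacks, enters cells through several of these carriers. Slc3a2, the shared heavy chain, stood at 148 and 110.0 FPKM in normal-fed and 132 and 126 FPKM in deficient-fed libraries and its diets overlapped (adjusted p = 0.968). Its light chain partner Slc7a5 (LAT1) was far lower at 3.97 and 4.91 against 9.05 and 3.18 FPKM, with the deficient diet libraries on either side of the normal diet libraries. Slc7a6, the light chain that exchanges arginine for glutamine, was the most abundant light chain at 10.8 and 15.7 against 23.8 and 19.9 FPKM (adjusted p = 0.184). Slc7a6 overlaps Slc7a6os on the opposite strand, and whether counting used strand is not given in the sources used here, so its value is uncertain. The level of Slc3a2 over the summed level of 6 light chain genes was 9.26 and 3.77 in normal-fed and 3.51 and 5.19 in deficient-fed libraries. Slc43a2 (LAT4), a facilitated carrier of leucine, phenylalanine and methionine, had 3.65 and 3.78 against 7.79 and 8.27 FPKM, 2.16-fold higher by mean FPKM without passing (adjusted p = 0.0917), and its relative Slc43a1 lay outside the threshold at 0.944 and 1.53 against 0 and 0.0137 FPKM.

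Among the other amino acid carriers, the arginine and lysine carrier Slc7a1 (CAT1) had 2.58 and 3.6 against 7.24 and 10.9 FPKM, 2.93-fold higher (adjusted p = 0.0947), and the taurine carrier Slc6a6 had 6.01 and 7.56 against 14.9 and 14.97 FPKM (adjusted p = 0.0726). The cystine carrier Slc7a11 (xCT) stayed outside the threshold at 0.1197 and 0.455 against 0.941 and 0.144 FPKM. The lysosomal carrier Slc36a1 had 1.57 and 1.44 against 0.675 and 0.313 FPKM. Slc38a7, which exports glutamine and asparagine from lysosomes, had 4.33 and 6.13 against 3.35 and 3.04 FPKM. In both, the deficient-fed libraries were the lower ones, without passing. The lysosomal arginine sensor Slc38a9 stood at 1.01 and 1.08 against 0.883 and 0.627 FPKM. Of the 18 members of the class none passed, 8 had both deficient diet libraries above both normal diet libraries and 4 the opposite (2 by the filter alone), and the median log2 change was 0.19. The shares were 30.7% higher and 25.5% lower without overlap among all genes tested, and a member that entered through 1 diet alone could not overlap.

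Choline was the other nutrient missing from the diet. Of 6 choline carriers only 2 were members. Slc44a2, a choline transporter-like protein of most cells, stood at 63.9 and 61.5 FPKM in normal-fed and 49.8 and 63.2 FPKM in deficient-fed libraries, so the diets overlapped (log2 change -0.16 ± 0.17, adjusted p = 0.642). Its relative Slc44a1 was much lower at 1.73 and 4.47 against 3.53 and 1.28 FPKM, with normal diet replicate 2 and deficient diet replicate 1 the high libraries. The high-affinity choline carrier of neurons, Slc5a7, was listed at 0 in all libraries. Slc25a26, which carries S-adenosylmethionine into mitochondria, had 2.56 and 1.88 against 4.19 and 7.804 FPKM, 2.71-fold higher by mean FPKM, and did not pass (adjusted p = 0.163). Its deficient-fed libraries lay far apart, both above the normal-fed ones.

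Slc19a1, the reduced folate carrier, stood at 7.4 and 9.28 against 10.2 and 13.7 FPKM (adjusted p = 0.337). The mitochondrial carrier Slc25a32 stood at 4.69 and 5.04 against 4.701 and 6.79 FPKM (adjusted p = 0.725). The proton-coupled folate carrier Slc46a1 lay outside the threshold at 0.221 and 1.24 against 0.858 and 0.312 FPKM. Slc52a3, a riboflavin carrier, had 2.99 and 7.03 against 7.28 and 7.26 FPKM, with normal diet replicate 1 alone low. No member of the 8 folate and vitamin carriers passed, and 4 had both deficient diet libraries above both normal diet libraries, with none the opposite, beside 30.7% higher and 25.5% lower without overlap among all genes tested.

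**Figure D4:**
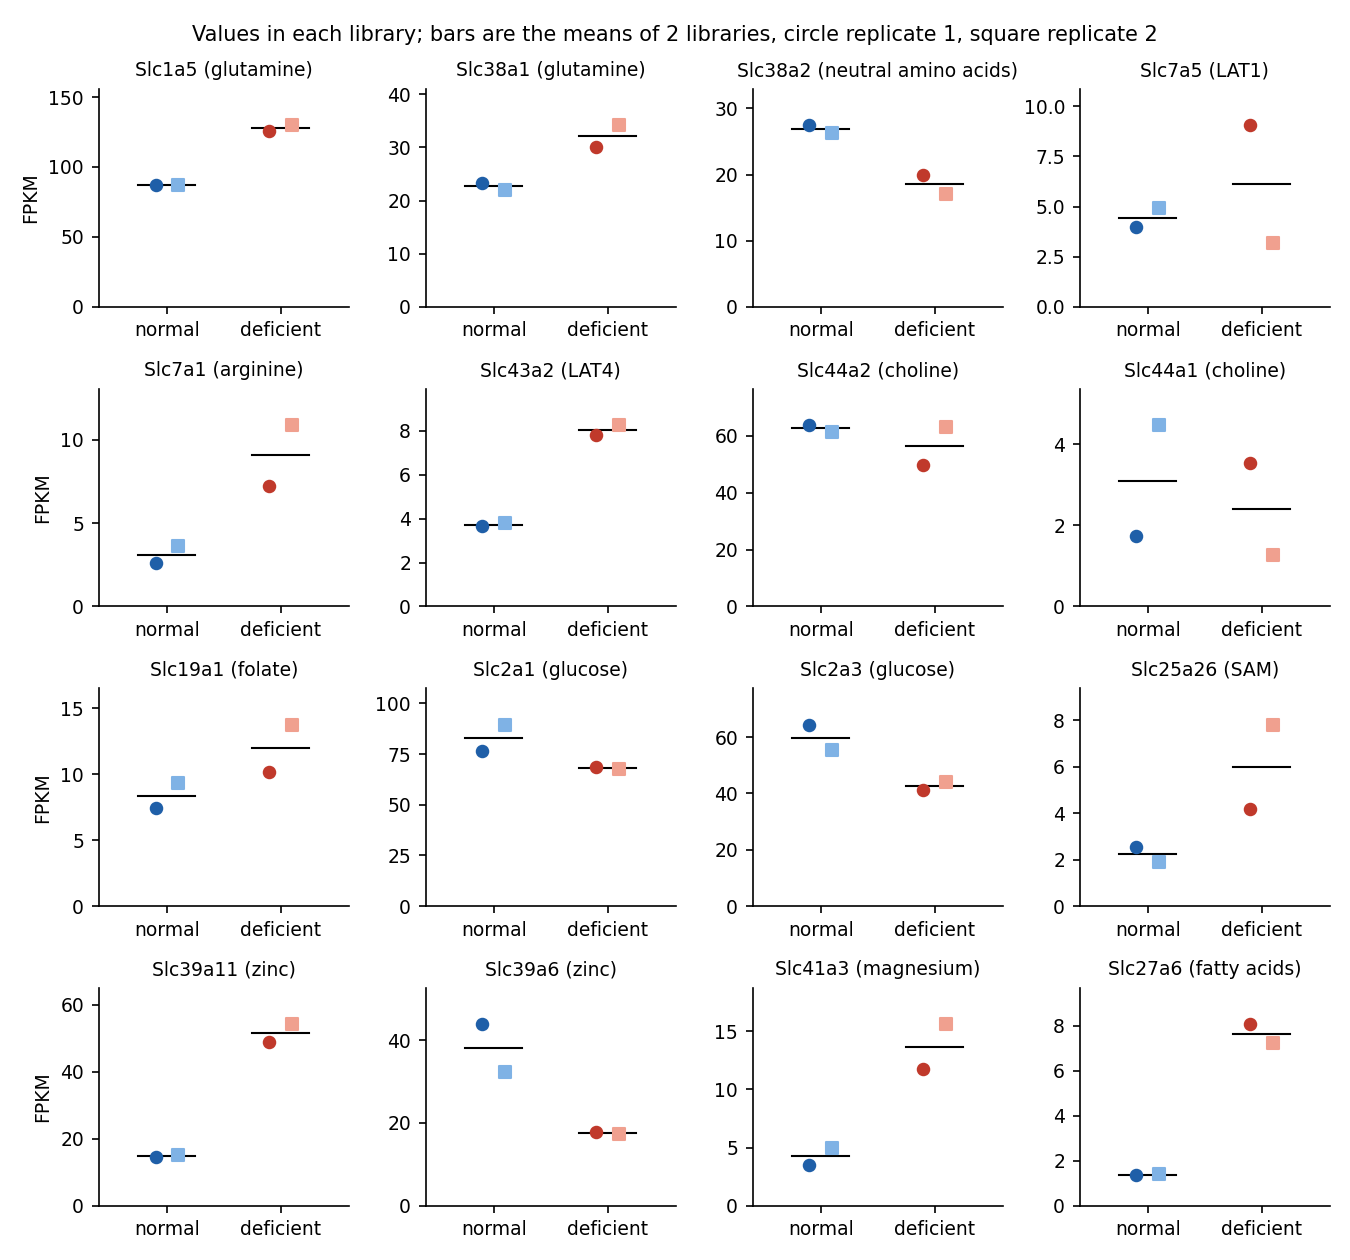
FPKM from 0 in each library for 16 members of the amino acid, choline, folate, glucose, mitochondrial (Slc25a26), metal and lipid classes, with bars at the mean of 2 libraries, circles for replicate 1 and squares for replicate 2. The diets separate for Slc1a5, Slc43a2, Slc39a11 and Slc27a6 with replicates close together, and overlap for Slc7a5, Slc44a2 and Slc44a1.

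Among sugar carriers, Slc2a1 (GLUT1) and Slc2a3 (GLUT3) had the highest levels of the class. Slc2a1 stood at 76.3 and 89.6 FPKM in normal-fed and 68.8 and 67.4 FPKM in deficient-fed libraries (adjusted p = 0.348), and Slc2a3 stood at 64.5 and 55.3 against 41.1 and 44 FPKM (adjusted p = 0.163). For both, each deficient diet library lay below each normal diet library, by 1.22-fold and 1.41-fold in mean FPKM, without passing. GLUT2, the carrier of hepatocytes (Slc2a2), was outside the threshold at 0 and 1.06 against 0.161 and 0 FPKM. Slc37a4, which admits glucose-6-phosphate to the endoplasmic reticulum, had 14.3 and 10.4 against 13.4 and 12.5 FPKM. None of 11 sugar carriers passed, and 2 had both deficient diet libraries above both normal diet libraries and 4 the opposite, beside 30.7% higher and 25.5% lower without overlap among all genes tested, with a median log2 change of -0.019.

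Lactate leaves glycolytic cells through monocarboxylate carriers. Slc16a3 (MCT4), the lactate exporter of glycolytic cells, stood at 12.2 and 69.2 FPKM in normal-fed and 77.8 and 60.9 FPKM in deficient-fed libraries, so normal diet replicate 1 was low and the other 3 libraries were alike. Its log2 change of 1.197 did not pass (adjusted p = 0.435). Without normal diet replicate 2 it passed with 2.40 (limma adjusted p = 0.0225), and without normal diet replicate 1 the change was -0.0072. Slc16a1 (MCT1) had 16.4 and 14.3 against 14.04 and 13.6 FPKM (adjusted p = 0.693) and Slc16a6, known for ketone body export in zebrafish liver, 40.2 and 38.5 against 53.1 and 62.03 FPKM (adjusted p = 0.137). Of the partner proteins of these carriers, Bsg (basigin) stood at 129 and 154 against 159 and 168 FPKM, and Emb (embigin) rose from 17.5 and 24.4 to 61.1 and 59.5 FPKM, with 1.499 ± 0.20 on the log2 scale (limma adjusted p = 0.0438). Emb was not called without normal diet replicate 1, deficient diet replicate 1 or deficient diet replicate 2 (adjusted p = 0.101, 0.129 and 0.260).

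The metal class held the most abundant of the called members. Slc39a11 (ZIP11), a zinc carrier of the Golgi and nucleus, rose from 14.5 and 15.1 FPKM on the normal diet to 48.8 and 54.2 FPKM on the deficient diet, 3.47-fold by mean FPKM. The replicates of each diet lay close together and the diets did not overlap. In limma its log2 change was 1.73 ± 0.15 (adjusted p = 0.0323). Leaving out 1 library moved the change only between 1.66 and 1.802, while the adjusted p ran from 0.0288 to 0.231: the call held without normal diet replicate 2 and was lost in the other 3 fits. Testing all rows, low ones included, gave an adjusted p of 0.147, and a replicate block 0.0793.

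The opposite direction was seen for Slc39a6 (ZIP6), a zinc importer of the cell surface, at 43.9 and 32.4 FPKM in normal-fed and 17.9 and 17.4 FPKM in deficient-fed libraries (log2 change -1.06 ± 0.20, adjusted p = 0.0691), which did not pass. The level of Slc39a11 over that of Slc39a6 was 0.331 and 0.467 in normal-fed and 2.73 and 3.11 in deficient-fed libraries. This ratio restates the values above and is a description. Slc39a7 (ZIP7), which releases zinc from the endoplasmic reticulum and was the most abundant metal carrier, stood at 82.1 and 88.9 against 88.2 and 84.1 FPKM (adjusted p = 0.969). Slc39a13 (ZIP13) had 8.33 and 6.75 against 17.9 and 16.01 FPKM (adjusted p = 0.0677). The surface importer Slc39a10 (ZIP10) had 2.79 and 2.49 against 2.801 and 2.01 FPKM. Slc39a1 (ZIP1), likewise of the surface, had 2.24 and 1.58 against 1.598 and 1.01 FPKM. Both were low and their diets overlapped. Zinc exporter Slc30a1 (ZnT1), a known target of the metal-responsive factor MTF-1, had 2.34 and 1.32 against 0.746 and 0.384 FPKM (adjusted p = 0.226).

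Magnesium carriers of the Slc41 family were all higher in both deficient diet libraries without passing. Slc41a3 had 3.51 and 4.95 against 11.7 and 15.6 FPKM (log2 change 1.49 ± 0.26, adjusted p = 0.0604), Slc41a1 7.31 and 5.82 against 13.8 and 10.5 FPKM and Slc41a2 1.43 and 1.03 against 3.73 and 3.04 FPKM. With quantile normalization Slc41a3 passed (adjusted p = 0.0448). For iron, the importer Slc11a2 (DMT1) stood at 12.7 and 14.02 against 18.7 and 16.4 FPKM (adjusted p = 0.312) and the lysosomal heme exporter Slc48a1 at 17.9 and 14.2 against 23.3 and 39.3 FPKM, again without passing. Of the 28 metal members 1 passed, 12 had both deficient diet libraries above both normal diet libraries and 2 the opposite (1 by the filter alone), and the median log2 change was 0.31. For all genes tested the shares are 1.22% called higher, and for non-overlap 30.7% higher and 25.5% lower.

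Promoters of 4 metal carriers, picked with their values known, are shown because MTF-1 acts through a short element, TGCACNC or TGCGCNC, where N is any base. In Slc39a11, Slc41a3 and Slc39a13 the diets lay apart, as they did in other metal members not shown here, such as Slc39a6. For Slc30a1, the known MTF-1 target named above, the filter alone set the separation of the diets. The 250 bases before the annotated start were read from RefSeq on GRCm38.p6, a later build than that of the deposited values, with matches on either strand in capitals.
Slc39a11 (chr11:113650093-113650342, minus strand): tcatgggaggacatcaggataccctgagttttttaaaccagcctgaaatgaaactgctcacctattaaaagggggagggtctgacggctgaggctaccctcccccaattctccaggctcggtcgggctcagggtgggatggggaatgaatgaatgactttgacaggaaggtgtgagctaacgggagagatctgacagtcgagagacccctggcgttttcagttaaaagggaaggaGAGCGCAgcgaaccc
Slc41a3 (chr6:90618996-90619245, plus strand): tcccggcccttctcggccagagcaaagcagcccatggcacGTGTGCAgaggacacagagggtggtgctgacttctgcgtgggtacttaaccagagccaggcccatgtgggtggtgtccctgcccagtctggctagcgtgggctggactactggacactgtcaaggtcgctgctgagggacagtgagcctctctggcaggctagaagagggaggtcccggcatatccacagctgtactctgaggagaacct
Slc39a13 (chr2:91070316-91070565, minus strand): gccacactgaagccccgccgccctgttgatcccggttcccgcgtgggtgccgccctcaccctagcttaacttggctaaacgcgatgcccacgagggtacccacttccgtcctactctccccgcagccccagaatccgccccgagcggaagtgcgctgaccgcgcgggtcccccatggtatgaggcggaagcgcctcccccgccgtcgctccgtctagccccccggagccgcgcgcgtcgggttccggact
Slc30a1 (chr1:191906531-191906780, plus strand): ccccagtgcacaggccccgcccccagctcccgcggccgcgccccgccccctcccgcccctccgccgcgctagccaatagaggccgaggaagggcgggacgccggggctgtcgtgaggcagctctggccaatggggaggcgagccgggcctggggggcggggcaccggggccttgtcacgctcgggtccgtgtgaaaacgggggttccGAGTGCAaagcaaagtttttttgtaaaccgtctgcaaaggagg
The windows of Slc39a11, Slc41a3 and Slc30a1 each held 1 match and that of Slc39a13 none. Of all 32851 promoter windows in the reference 21.4% held at least 1 match, as did 28.7% of 174 windows of 129 members with an entry and 11 of 25 windows of 21 metal carriers. A match is a description of letters and not a site of binding.

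Metal handling genes outside the superfamily gave no call. Of 16 genes 14 were tested and none passed in limma, with 3 higher and 3 lower in both libraries of a diet (30.7% and 25.5% of all genes tested). The ferritin heavy chain Fth1 had 2235 and 2669.6 against 3799 and 3561 FPKM, and the light chain Ftl1 had 56.9 and 71.4 against 41.2 and 35.1 FPKM. For this pair the diets did not overlap, in opposite directions. Metallothionein gene Mt1, another target of MTF-1, stood at 0.992 and 3.56 against 1.19 and 0.134 FPKM, and Mt2 was listed at 0 throughout. Mtf1 itself lay below the filter at 0.609 and 0.552 against 0.551 and 0.587 FPKM.

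In the mitochondrial inner membrane, Slc25a4 (ANT1), an ADP/ATP carrier, stood at 57.3 and 64.4 FPKM in normal-fed and 98.3 and 114 FPKM in deficient-fed libraries (log2 change 0.79 ± 0.16, adjusted p = 0.0726). Its paralog Slc25a5 (ANT2) stood at 51.1 and 53.6 against 45.5 and 50.5 FPKM, so the ratio of the pair was 1.12 and 1.201 in normal-fed and 2.16 and 2.26 in deficient-fed libraries. Slc25a5 has processed pseudogene copies that can share reads, so its value is uncertain. The phosphate carrier Slc25a3 had 69.3 and 64.7 against 73 and 73.2 FPKM (adjusted p = 0.637), and the oxoglutarate carrier Slc25a11 97.5 and 92.6 against 77.04 and 78.6 FPKM (adjusted p = 0.285).

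Further carriers had both deficient diet libraries above the normal diet libraries without passing. The carnitine-acylcarnitine carrier Slc25a20, which admits fatty acids for oxidation, had 13.96 and 15.6 against 27.6 and 24.8 FPKM (adjusted p = 0.0868), and the NAD carrier Slc25a51 13.1 and 13.8 against 23.3 and 27.3 FPKM (adjusted p = 0.0775). The citrate carrier Slc25a1 stood at 23.1 and 16.1 against 24.9 and 33.5 FPKM, and the pyrimidine nucleotide carrier Slc25a36 at 14.5 and 16.9 against 23.03 and 38.3 FPKM. Of 33 mitochondrial members none passed and 16 had both deficient diet libraries above both normal diet libraries and 8 the opposite, beside 30.7% higher and 25.5% lower without overlap among all genes tested, with a median log2 change of 0.17. Among carriers of the inner membrane without the Slc name, Ucp2, the uncoupling protein of lymphocytes, had 199 and 167 against 105 and 149 FPKM and the pyruvate carrier subunit Mpc2 37.2 and 35.99 against 46.7 and 59.3 FPKM, and neither passed.

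For nucleosides, the equilibrative nucleoside carrier Slc29a1 (ENT1) stood at 119.6 and 219 FPKM in normal-fed and 167 and 139 FPKM in deficient-fed libraries, with normal diet replicate 2 the highest and normal diet replicate 1 the lowest library (adjusted p = 0.902). The sodium-coupled nucleoside carrier Slc28a2 (CNT2) had 36.9 and 21.2 against 9.602 and 9.91 FPKM, 2.98-fold lower by mean FPKM (log2 change -1.43 ± 0.30, adjusted p = 0.0806), and it passed without normal diet replicate 2 (-1.82, adjusted p = 0.0368). Slc29a4, a carrier of monoamines and adenosine, stood at 2.21 and 1.46 FPKM in normal-fed libraries and was listed at 0 and 0.406 FPKM in deficient-fed ones. The orphan Slc35e3 had 3.93 and 4.58 against 0.835 and 0.961 FPKM, the most negative log2 change of the members (-1.47), and did not pass (adjusted p = 0.0573). Both passed the filter only through the normal-fed libraries.

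Several carriers of this class supply the Golgi with sugar donors. Slc35c1, which brings GDP-fucose to the Golgi for selectin ligands, had 34.98 and 38.1 against 33.6 and 36.1 FPKM, and its relative Slc35c2 74.7 and 70.4 against 68.8 and 79.5 FPKM. Slc35a2, the UDP-galactose carrier, had 8.699 and 7.39 against 18.2 and 14.7 FPKM (adjusted p = 0.0905), and the relative Slc35f2 3.42 and 3.76 against 8.896 and 13.4 FPKM (adjusted p = 0.0718), both with the deficient diet libraries on top. In this class none of 29 members passed, 10 had both deficient diet libraries above both normal diet libraries and 6 the opposite (3 by the filter alone), and the median log2 change was 0.086. The shares over all genes tested are 30.7% and 25.5%.

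Among ion carriers, Slc9a9 (NHE9), an endosomal sodium-proton exchanger, was the most abundant ion carrier at 54.2 and 37.3 FPKM in normal-fed and 49.4 and 68.5 FPKM in deficient-fed libraries, with the diets overlapping (adjusted p = 0.4703). The potassium-chloride cotransporter Slc12a7 (KCC4) had 16.01 and 17.2 against 20.04 and 25.5 FPKM (adjusted p = 0.281). The chloride-bicarbonate exchanger Slc4a2 (AE2) had 10.8 and 9.56 against 7.27 and 4.85 FPKM. Slc26a11, a lysosomal sulphate carrier relative, had 8.21 and 7.46 against 3.75 and 2.86 FPKM, 2.37-fold lower (adjusted p = 0.0925). Slc24a5, a sodium-calcium exchanger known from melanosomes, was listed near 0 in normal diet replicate 1, at 3.68 FPKM in normal diet replicate 2 and at 5.39 and 4.48 FPKM in deficient-fed libraries (adjusted p = 0.337). None of 17 members of the class passed, and 8 had both deficient diet libraries above both normal diet libraries, of which 1 by the filter alone, and 4 the opposite, beside 30.7% higher and 25.5% lower without overlap among all genes tested.

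Of the phosphate importers, Slc20a1 (PiT1) stood at 30.9 and 30.7 against 31.5 and 25.5 FPKM (adjusted p = 0.742). Slc20a2 (PiT2) was far lower at 1.71 and 2.37 against 2.95 and 2.59 FPKM (adjusted p = 0.5303).

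The other called member belongs to the lipid class. Slc27a6 (FATP6), a fatty acid carrier known from heart, rose from 1.38 and 1.39 FPKM to 8.07 and 7.24 FPKM, 5.53-fold by mean FPKM. In limma its log2 change was 1.86 ± 0.23 (adjusted p = 0.0397), and 1.79 to 1.93 with 1 library left out, where the adjusted p ran from 0.0568 to 0.251. It was therefore called in none of the fits with 1 library left out, nor when low rows were tested too (0.147) or with a replicate block (0.1002). Its relative Slc27a4 had 3.66 and 2.87 against 4.67 and 3.38 FPKM, and Slc27a1 had 3.22 and 1.75 against 2.25 and 4.29 FPKM. Slc27a2, a fatty acid activating protein of hepatocytes, had 0.0672 and 1.15 against 1.83 and 1.02 FPKM. The diets overlapped in each of these relatives. Slc10a3, a relative of the bile acid carriers, stood at 24.2 and 20.9 against 17.3 and 21.2 FPKM, and its paralog Slc10a7 at 9.41 and 11.8 against 7.75 and 6.72 FPKM.

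Slc15a3, a histidine and peptide carrier of endolysosomes, had 0.263 and 2.43 against 6.95 and 4.87 FPKM (adjusted p = 0.156). Its paralog Slc15a4 had 12.3 and 21.4 against 22.7 and 16.9 FPKM (adjusted p = 0.693). For Slc15a3 the diets did not overlap, and normal diet replicate 1 was near 0. Slc46a3, a lysosomal carrier, had 12.1 and 9.33 against 8.49 and 6.29 FPKM (adjusted p = 0.333). Of the organic ion carriers, the urea carrier Slc14a1 stood at 23.8 and 13.8 against 19.4 and 30.9 FPKM and the carnitine carrier Slc22a5 (OCTN2) at 6.38 and 7.67 against 6.27 and 9.82 FPKM, both with overlapping diets. Slc22a5 is closely related to Slc22a21, which can share its reads.

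A few genes with the Slc prefix encode no carrier. Slc9a3r1 stood at 338 and 319.7 FPKM in normal-fed and 214 and 245 FPKM in deficient-fed libraries (log2 change -0.52 ± 0.14, adjusted p = 0.129), so the diets did not overlap without a call. Slc4a1ap, an adaptor protein, had 19.5 and 15.6 against 14.7 and 15.6 FPKM (adjusted p = 0.611).

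In some members the libraries of a single diet lay far apart. In 18 members (10.4%) the normal diet libraries lay at least 1 log2 unit apart, beside 936 of all genes tested (8.98%). Replicate 2 was the higher library in 16 of these 18 members, as it was in 797 of the 936 genes. In the deficient diet 8 members (4.62%) lay that far apart, beside 673 of all genes tested (6.46%). Replicate 1 was the higher library in all 8, as it was in 580 of the 673 genes. The direction was thus shared with genes at large. Slc40a1 (ferroportin), the iron exporter of macrophages, stood at 0.491 and 9.29 FPKM in normal-fed and 4.32 and 0.844 FPKM in deficient-fed libraries, and Slc11a1 (NRAMP1), the phagosomal metal carrier of macrophages, at 0.436 and 7.01 against 9.45 and 3.67 FPKM. The scaffold gene Slc9a3r2 had 2.15 and 23.5 against 8.49 and 4.26 FPKM. The purine base carrier Slc43a3 had 3.91 and 31.2 against 18.2 and 5.94 FPKM. In all of these, normal diet replicate 1 was the lowest library, as it was for Slc7a7, an arginine carrier of macrophages and epithelia, at 0.811 and 6.596 against 2.24 and 0.924 FPKM. For 10 members the 4 libraries had the same order as the summed macrophage markers (normal diet replicate 1 lowest, then deficient diet replicates 2 and 1, then normal diet replicate 2), a share of 5.78% beside 5.72% of all genes tested. Slc40a1, Slc9a3r2, Slc43a3, Slc7a7, Slc2a6 and Slc39a8 were among them. The summed hepatocyte markers (18.4 and 179 against 106 and 68.5 FPKM) had this order too. So did the sinusoidal endothelium markers (74.5 and 821 against 417 and 128 FPKM), so the order is not particular to macrophage markers. The part of other cells in these values was not tested. The macrophage sum ran from 152 to 2144 FPKM in the normal-fed libraries.

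**Figure D5:**
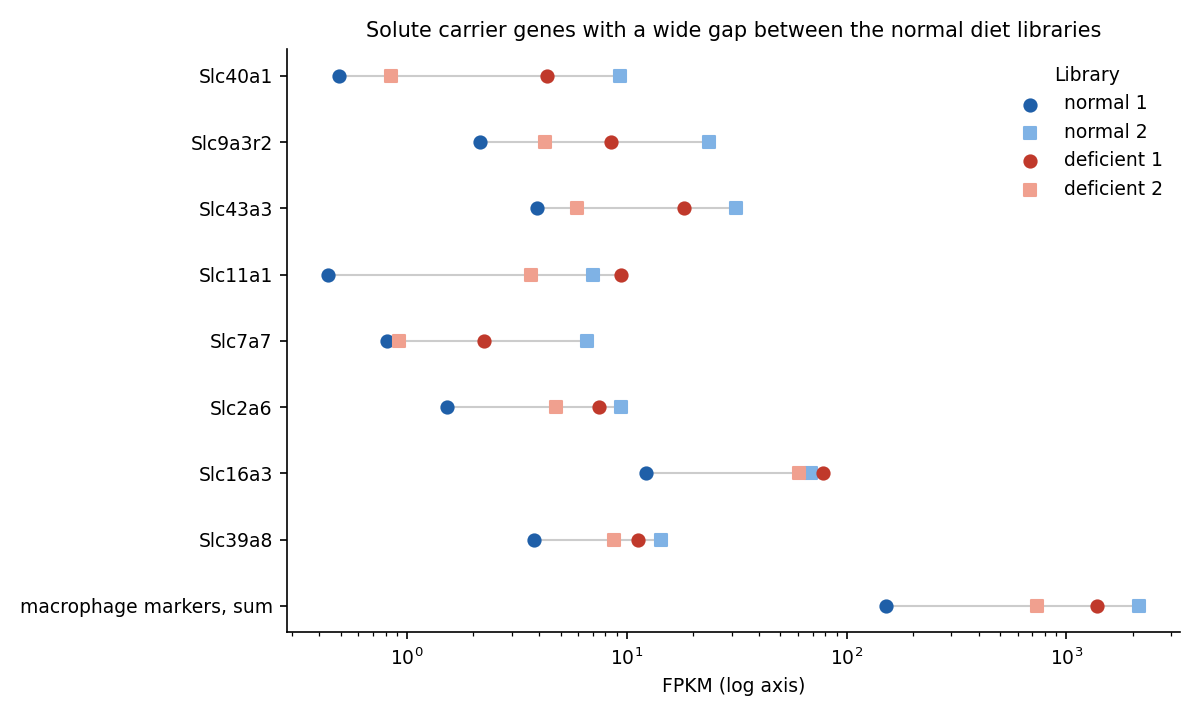
FPKM on a log axis in each library for 8 chosen members of the 18 whose normal diet libraries lie far apart. The summed macrophage and Kupffer cell markers are below, with blue for the normal diet and red for the deficient diet. Normal diet replicate 1 is the lowest library in each line, and normal diet replicate 2 is the highest in 6 of the 8 members and in the marker sum. Among members not drawn, normal diet replicate 1 was the highest library for Slc29a2 and Slc39a5. Deficient diet replicate 2 was the lowest for Slc44a1 and Slc7a8.

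Genes that act beside these carriers were compared last. Of 31 partner proteins and transporters without the Slc name 25 were tested, and 2 rose (Emb and Aqp3) and none fell in limma, beside 1.22% and 1.53% of all genes tested. Aqp3, a channel for water and glycerol, rose from 6.098 and 10.9 to 42.6 and 48.9 FPKM (limma log2 change 2.34 ± 0.29, adjusted p = 0.0399), a call lost without normal diet replicate 1, deficient diet replicate 1 or deficient diet replicate 2 (adjusted p = 0.0766, 0.111 and 0.257). Abcb1a, a drug efflux pump of lymphocytes, had 35.1 and 18.7 against 4.75 and 5.12 FPKM (adjusted p = 0.0511). Aqp9, a glycerol channel, had 35.9 and 22.3 against 6.44 and 3.23 FPKM (adjusted p = 0.05405). Both just missed the threshold.

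Amino acid sensing genes gave no call among 25 tested, with 6 higher and 5 lower in both libraries of a diet (30.7% and 25.5% of all genes tested) and a median log2 change of -0.060. Atf4, the factor that drives amino acid carriers under starvation, stood at 666 and 454 against 352 and 402 FPKM (adjusted p = 0.248). Ddit3, induced through the same pathway, stood at 123 and 112 against 58.6 and 42.8 FPKM (adjusted p = 0.05405). In both the deficient-fed libraries were the lower ones. Asns, an asparagine synthetase and target of Atf4, stood at 3.62 and 2.26 against 7.34 and 3.86 FPKM, and Rheb, an activator of the mTORC1 kinase, at 128 and 119 against 205 and 169.5 FPKM. Of 9 genes on a list of methionine uptake, heavy chain included, 8 were tested and none passed, with a median log2 change of 0.37.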

How the data were processed

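RNA of sorted liver double negative T cells was sequenced in 4 libraries, 2 per diet, made with an Illumina TruSeq kit per the labels' protocols. The deposited values were taken as FPKM, although no source names the unit, because they are not whole and sum to 370112 to 389403 per library. The submitters' processing notes list Bowtie 0.12.2 and build mm8. The sources used here do not give the quantifier, annotation or strand setting. Depth and its precision are unknown. Columns were matched to samples by title and grouped by diet.

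The test was limma 3.58.1 (R 4.3.3) on log2(FPKM + 1), with a mean-variance trend and diet as factor, over 10423 genes that reach 1 FPKM in 2 or more libraries. It had 2 residual and 2.84 prior degrees of freedom, and Benjamini-Hochberg adjustment ran over all genes tested. Folds are ratios of mean FPKM. The steps were tested on simulated data, in 20 runs with 200 changed genes each. Of changes of 1 log2 unit 2.31% were recovered, of 2 units 56.9% and of 3 units 83.4%. Of the calls 5.11% were false. In the simulation a change of 1 log2 unit was thus mostly missed, so a gene that did not pass can still have changed.

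The members and lists were chosen with earlier results of these data known. Substrate classes were assigned from textbook roles, 3 members (Slc35g1, Slc43a3 and Slc4a1ap) after their values were seen. The rule for named genes took every called member, the 10 highest means, the 2 highest per class, a panel of nutrient carriers, the 5 largest rises and falls without overlap, and called and abundant genes of the lists. Abundant markers of other cells are given as list sums. Of the genes under this rule 1 is not reported here, and members outside it are given mostly as counts. Other members named with values, such as Slc6a6, Slc39a13, Slc41a1, Slc25a20, Slc25a51, Slc35a2 and Slc35f2, were chosen after their values were seen, as were Abcb1a, Aqp9, Ddit3, Asns, Mt1 and Mpc2. Promoter entries matched 129 members. Alternative fits left out each library, blocked on replicate number, dropped the trend, centred on the median, used quantile normalization, pseudocounts of 0.1 or 5, all rows or those at 5 FPKM, or called at an adjusted p of 0.10.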

Additional observations from a re-analysis of the deposited data

How the results depend on the processing

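Of 2 members called higher, 2 remained at pseudocounts of 0.1 and 5, with a filter of 5 FPKM, with median centring and without the trend (Slc39a11 and Slc27a6 each time), and 3 passed with quantile normalization. The count was 0 with no filter on low values, between 0 and 4 with 1 library left out, and 13 at an adjusted p of 0.10. Members called lower numbered 0 to 1 with 1 library left out and 4 at an adjusted p of 0.10, and 0 under the others. Fewer samples in the fit with 1 library left out and more genes tested without a filter are part of those alternatives; the cause of each loss was not tested. The median log2 change of the members stayed between 0.13 and 0.26, and between 0.13 and 0.26 with 1 library left out. The libraries share only a replicate number: same-numbered libraries deviated in opposite directions (r = -0.28 across 10423 genes, which are not independent), and with the replicate block 0 members were called. With the crossed pairing, a replicate block added after seeing the data, 0 members and 52 genes were called. For 55 named genes under 13 alternatives, 634 values kept their direction and side of the threshold, 34 of the called genes' values lost the call, 5 gained one and 22 of uncalled genes changed sign, for causes not tested. With 1 library left out, log2 changes of genes under the naming rule that crossed 0 ran from -0.198 to 2.28 for Slc11a1, -0.12 to 0.62 for Slc15a4, -0.0072 to 2.401 for Slc16a3, -0.26 to 0.031 for Slc20a1, -0.14 to 0.44 for Slc22a5, -0.041 to 0.41 for Slc25a32, -0.52 to 0.34 for Slc29a1. Further ones ran from -0.075 to 0.13 for Slc35c2, -0.27 to 0.064 for Slc39a10, -0.044 to 0.069 for Slc39a7, -0.19 to 0.23 for Slc3a2, -1.72 to 0.44 for Slc40a1, -0.77 to 0.24 for Slc44a1, -0.33 to 0.012 for Slc44a2, -0.38 to 0.89 for Slc7a5. Of other members named, Slc38a6 (-0.25 to 0.055), Slc37a4 (-0.13 to 0.29), Slc2a6 (-0.57 to 1.47), Slc27a1 (-0.066 to 0.63), Slc39a8 (-0.497 to 1.19), Slc7a6os (-0.12 to 0.064), Slc9a3r2 (-1.797 to 1.16), Slc43a3 (-1.48 to 1.23) and Slc29a2 (-0.42 to 0.38) crossed 0. So did Slc39a5 (-0.68 to 0.28) and Slc35g1 (-0.81 to 0.46). With quantile normalization the sign turned at -0.0041 for Slc39a7 and -0.0060 for Slc35c2.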

Other observations

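Among solute carrier rows below the threshold, the highest single values were 2.305 FPKM for Slc10a6, a steroid sulphate carrier, in deficient diet replicate 1, against 0.0738 and 0.0183 FPKM in normal-fed libraries and 0 in deficient diet replicate 2, and 1.74 FPKM for Slc12a5, a cotransporter of neurons, in normal diet replicate 2. The zinc carrier Slc39a5, known from liver and pancreas, stood at 2.44 and 0.479 FPKM in normal-fed and 0.667 and 1.74 FPKM in deficient-fed libraries. Slc39a5 and the summed pancreatic acinar markers were both highest in normal diet replicate 1. The lowest library was normal diet replicate 2 for Slc39a5 and deficient diet replicate 2 for the marker sum. Whether pancreatic transcripts contribute to Slc39a5 was not tested.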
